A study of Homo sapiens with 6 samples.

Results

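The genes described here are the 47 listed genes of human DNA replication that load and fire origins or work at the fork, taken by their symbols from the 26255 gene symbols of the RNA sequencing tables. They cover 12 groups, from the origin recognition complex to the factors that rebuild chromatin behind the fork. All 47 were found and all passed the filter of a mean of at least 1 FPKM (fragments normalised to exon length and to library size), as did 12040 genes in all. The cells were BxPC-3, a human pancreatic adenocarcinoma line, and each condition had 2 libraries. Parent cells had no treatment, NC-1 cells were transfected with a negative control, and miR-4711-5p cells were transfected with that microRNA, with RNA taken at 36 h. The study asked whether miR-4711-5p lowers genes of the pre-replication complex and slows entry into S phase. By qPCR on technical replicates, it reported that the microRNA lowered such genes in pancreatic cancer cells. The Parent cells were not transfected, so NC-1 against Parent compares the control treatment as a whole with none, and miR-4711-5p against NC-1 compares 2 transfected groups. The labels do not say whether the 2 libraries of a group came from separate cultures, and p-values measure the spread between these libraries, which may be technical.

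Before S phase, the origin recognition complex (ORC1 to ORC6) sits on origins and, with CDC6 and CDT1, loads MCM2 to MCM7 as a ring-shaped helicase that is still inactive, while geminin (GMNN) holds CDT1 in check. In S phase, the kinase CDC7 with DBF4 lets CDC45 and the GINS complex join the ring to form the active helicase, and MCM10 helps to fire it. Polymerase alpha with primase then lays primers, polymerases epsilon and delta copy the strands, PCNA and its loader RFC clamp the polymerases to DNA, RPA covers single strands, FEN1 and LIG1 join Okazaki fragments, and CHAF1, UHRF1 and DNMT1 restore nucleosomes and DNA methylation. Many of these genes are known targets of E2F-DP transcription factors, and their mRNA is usually high in dividing cells.

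A microRNA pairs through its seed, bases 2 to 8, with sites in mRNA 3′ UTRs, so the sequence of the transfected strand is shown first, with the seed in capitals, as RefSeq gives it on GRCh38.p14 at chr1:59733269-59733291 on the minus strand:
hsa-miR-4711-5p: uGCAUCAGgccagaagacaugag
The sites searched were CTGATGCA (8mer, the seed match followed by A), CTGATGC (7mer-m8) and TGATGCA (7mer-A1). An annotated 3′ UTR held such a site in 8 of the 47 genes (17.0%), against 2180 of 10593 tested genes with an annotated 3′ UTR (20.6%). GINS2 was the only one of the 47 with an 8mer. In its only coding transcript the site starts at base 90 of a 3′ UTR of 2014 bases. The sites of GINS2, CDC6, GINS3 and POLD2 are shown because these genes were lower with miR-4711-5p than in NC-1, and those of POLE and POLD3 because they were not. Each stretch of 30 bases is read 5′ to 3′ along the mRNA strand from GRCh37, the build of the files, with the site in capitals:
GINS2 8mer: tagaaacacttCTGATGCAtgaaaaatgtg
CDC6 7mer-A1: ggttctgtcaaTGATGCAtgaagcagactt
GINS3 7mer-A1: ttaggctgtctTGATGCAaacttagaacca
POLD2 7mer-m8: agcctgagcacttgCTGATGCgagccttga
POLE 7mer-m8: tgccaggcctcCTGATGCcaaggccacatc
POLD3 7mer-A1: tatgtcgtaagTGATGCAatcagctgtctg
In that order the sites lie in the 3′ UTR at chr16:85711721-85711728 on the minus strand, chr17:38460491-38460497 on the plus strand, chr16:58439831-58439837 on the plus strand, chr7:44154288-44154294 on the minus strand, chr12:133201233-133201239 on the minus strand and chr11:74353167-74353173 on the plus strand. The POLD2 site is in 8 of 17 annotated coding transcripts, the canonical one included, and the other sites shown are in the canonical transcript too. CHAF1B has a 7mer-m8 and RFC4 a 7mer-A1, the latter only in a transcript that is not the canonical one.

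The FPKM of a library summed to between 493145 and 550772, lowest in the miR-4711-5p libraries, and the files hold no read counts, so depth in reads is unknown. Judged from the spacing of the lowest values, depth ran from 0.751 to 1.21 of that of Parent library 1. This is a rough estimate, because only 29.0% to 36.8% of the low genes in the other libraries shared the spacing used. The normalization option is not given, so the estimate may reflect scaling as well as depth. Epithelial keratins were abundant in each library (KRT19 at 890.1 to 1700 FPKM), and CDH1 (E-cadherin, which joins epithelial cells) was at 109 to 117 FPKM in Parent and NC-1 and at 28.3 and 30.9 FPKM with miR-4711-5p. None of the 5 blood cell markers, and 1 of the 5 fibroblast markers (COL1A1, at 1.24 to 2.35 FPKM), reached the filter. In bulk RNA, fewer cells in S phase and less RNA per cell cannot be told apart. Annotated pseudogenes named by the gene's symbol followed by P exist for 9 of the 47 genes (ORC1, DBF4, POLD2, PCNA, RFC3, RFC5, RPA2, RPA3 and FEN1). Copies with other names, such as PRIM2BP at PRIM2, were not counted. Exons of 18 overlap a gene on the opposite strand, and exons of 9 overlap a gene on the same strand. The kit keeps the strand, which does not tell apart genes on the same strand. The strand option of the counting is not given in the sources used here, and how reads were shared was not measured.

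Both transfected groups had less replication gene mRNA than Parent cells. The summed level of the 47 genes was 1908 and 1901 FPKM in Parent, 1446 and 1465 in NC-1 and 1440.0 and 1476 with miR-4711-5p. The NC-1 and miR-4711-5p libraries overlapped in this sum, and all 4 lay below both Parent libraries. With limma on log2(FPKM + 1) and Benjamini-Hochberg adjustment over all 12040 genes at 0.05, 38 of the 47 genes were lower in NC-1 than in Parent, where 15.1% of all tested genes were lower, and 9 did not pass the test. None was called higher, where 12.1% of all genes were, nor was any higher at an unadjusted p under 0.05. The median log2 change of the 47 genes was -0.350, against -0.010 over all tested genes. Against the same Parent libraries, 35 were lower with miR-4711-5p (24.7% of all genes), 1 was higher (18.7% of all genes) and 11 did not pass, with a median of -0.334 beside -0.013 over all genes. Both comparisons use the same Parent libraries, so they are not independent of each other.

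Between miR-4711-5p and NC-1 the changes went both ways. With the microRNA, 9 of the 47 genes were lower, where 21.2% of all tested genes were, 11 were higher, where 18.4% of all genes were, and 27 did not pass. Both counts are near the shares over all genes. The median log2 change was 0.004, the same as over all tested genes, and 33 of the 47 log2 changes were smaller than 0.2 in size. The genes that fell were CDC6, MCM5, GINS1, GINS2, GINS3, POLD2, POLE2, RFC1 and LIG1. Those that rose were ORC1, ORC3, ORC4, ORC6, MCM10, PCNA, RFC3, RPA1, RPA2, CHAF1A and UHRF1. Only GINS2 changed by 1.5-fold or more. Both miR-4711-5p libraries lay below both NC-1 libraries for 19 of the 47 genes and above them for 19. Over all tested genes the shares were 36.19% and 36.25%, so a lack of overlap here is near the share over all genes. Against Parent, 38 lay below and 2 above with miR-4711-5p (39.26% and 34.98% of all genes). In NC-1, 43 lay below Parent and 1 above (34.24% and 31.3% of all genes). The NC-1 libraries enter this comparison and the one against Parent, so a low NC-1 value moves both.

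Scale and single libraries bear on these counts. When each library was rescaled to the same summed FPKM, the median of all genes moved to 0.053 (miR-4711-5p against NC-1), 0.108 (miR-4711-5p against Parent) and 0.065 (NC-1 against Parent). The 47 genes then had 5 lower and 13 higher, 27 lower and 4 higher, and 33 lower and 0 higher, with medians of 0.055, -0.206 and -0.273, and over all genes the split was 2083 lower and 2925 higher, 1775 and 4014, and 1000 and 2325 in the same order. At equal sums the falls of GINS1, MCM5, POLE2 and RFC1 against NC-1 did not pass, and MCM7 and POLE passed as higher. Against Parent, the falls with miR-4711-5p of GMNN, MCM10, GINS4, PRIM2, RFC1, FEN1, CHAF1A and UHRF1 did not pass, and ORC2, ORC6 and RPA2 passed as higher (0.304, 0.210 and 0.172, adjusted p = 0.00874, 0.0395 and 0.0207). Those in NC-1 of CDT1, ORC6, POLE, POLE2 and RFC3 did not pass. Leaving out miR-4711-5p library 1 left 3 lower and 4 higher against NC-1, and leaving out library 2 left 5 and 3. Without NC-1 library 1 there were 6 lower and 6 higher, and without NC-1 library 2 there were 7 and 5. Of the 20 calls against NC-1, those of CDC6, GINS2, POLD2, ORC4 and RPA2 held under every alternative run except the added rule of a 1.5-fold change, under which only GINS2 remained.

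**Figure D1:**
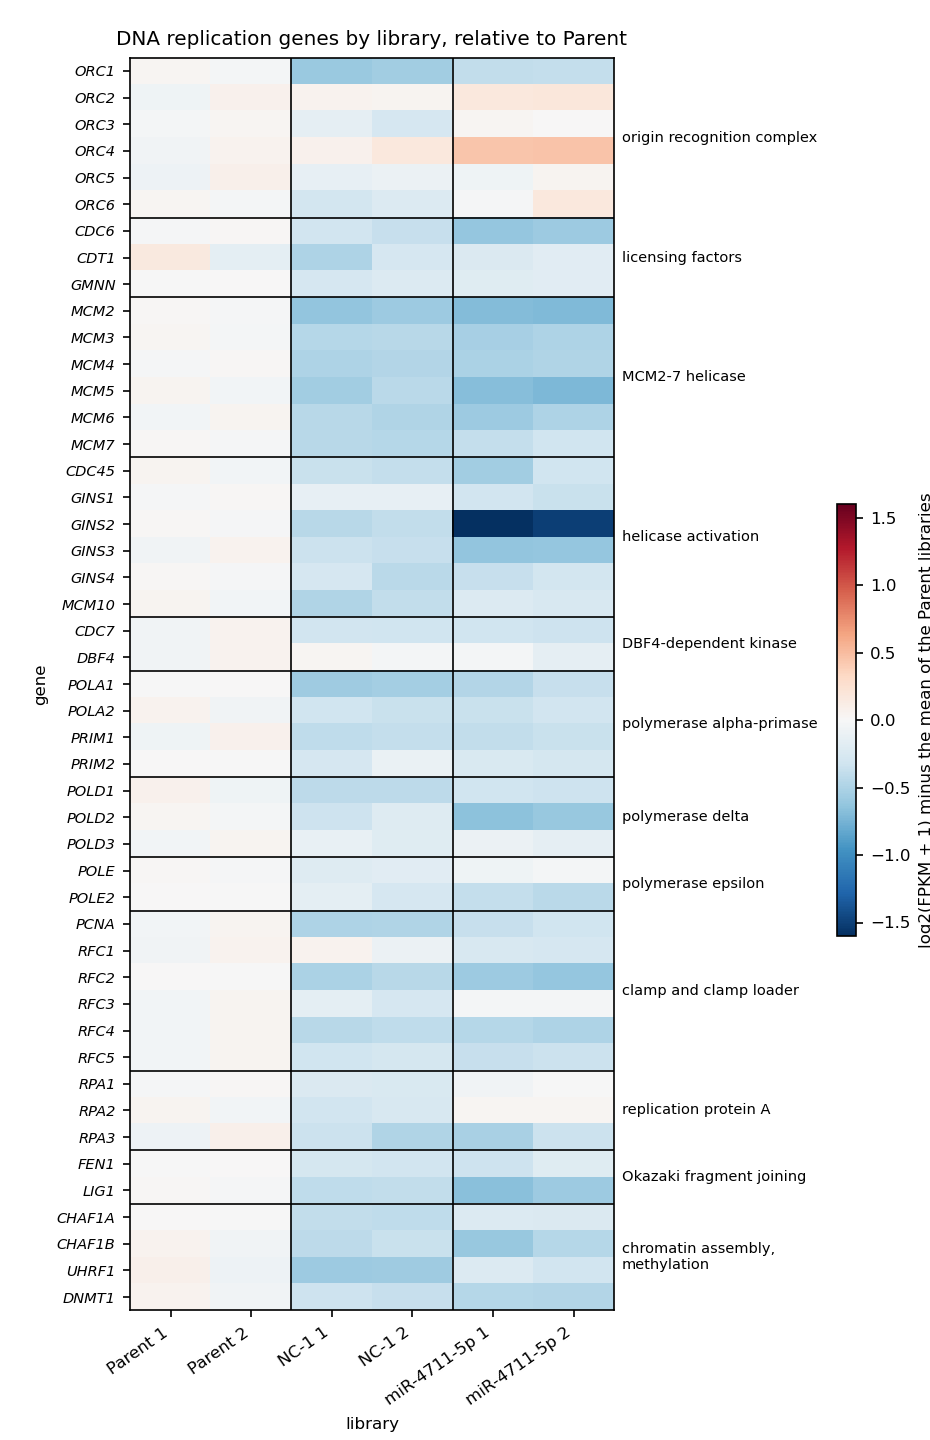
Heat map of log2(FPKM + 1) minus the mean of the Parent libraries for the 47 genes (rows, by group) in the 6 libraries (columns), with blue for lower and red for higher. The 4 transfected libraries are blue in most rows, the miR-4711-5p column pair is darkest at GINS2, and ORC4 is red.

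**Figure D2:**
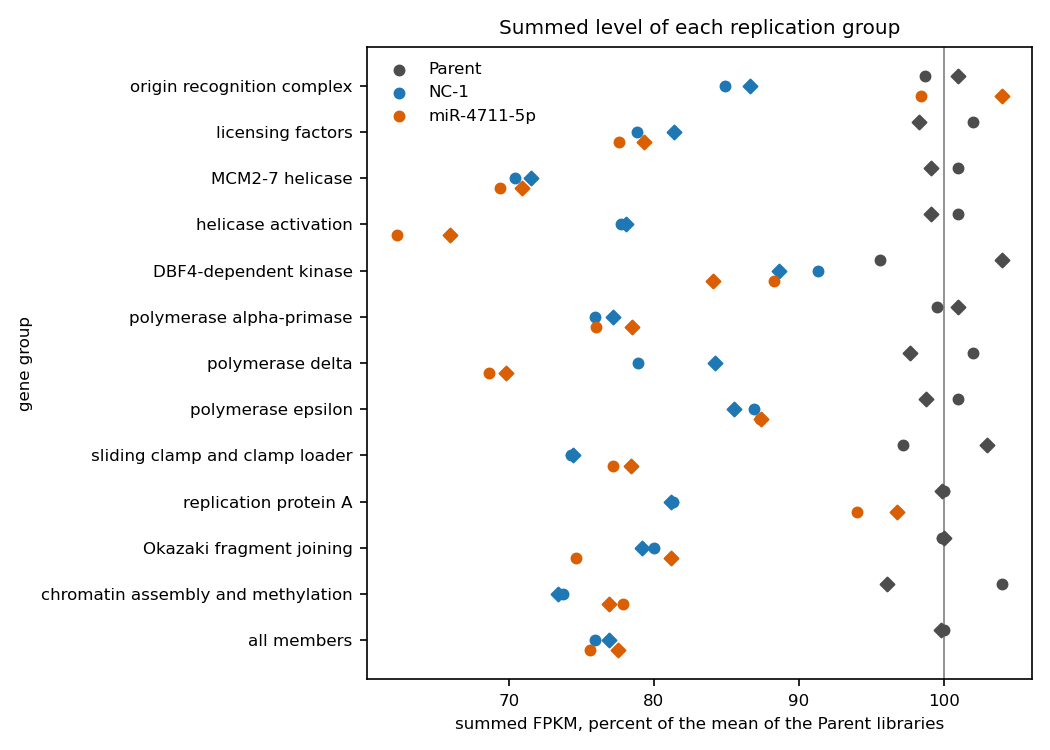
Summed FPKM of each group of replication genes in each library (horizontal axis, percent of the mean of the Parent libraries), coloured by condition, with circles for library 1 and diamonds for library 2. NC-1 and miR-4711-5p lie together at 69.4% to 71.5% for MCM2 to MCM7, apart for helicase activation (77.7% and 78.1% against 62.3% and 65.9%), and miR-4711-5p lies near Parent for the origin recognition complex and RPA.

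The origin recognition complex was the group least lowered against Parent with miR-4711-5p. The sum of its 6 genes was 99.3 and 102 FPKM in Parent, 85.4 and 87.04 in NC-1 and 98.9 and 104 with miR-4711-5p, so that the miR-4711-5p libraries spanned the Parent values and NC-1 lay below both. ORC1, the subunit whose level moves with the cell cycle, was at 24.04 and 22.9 FPKM in Parent, 15.2 and 15.7 in NC-1 and 17.6 and 17.8 with miR-4711-5p. It was lower in NC-1 than in Parent by a log2 change of -0.571 ± 0.051 (SE, adjusted p = 0.00102). With miR-4711-5p it was below Parent (-0.387 ± 0.051 (SE, adjusted p = 0.00106)) and above NC-1 (0.184 ± 0.051 (SE, adjusted p = 0.0263)). The 3 groups did not overlap, with miR-4711-5p in between.

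ORC4 was the only one of the 47 genes called higher than in Parent on the deposited scale. It was at 9.19 and 9.95 FPKM in Parent, 10.1 and 10.8 in NC-1 and 13.3 and 13.5 with miR-4711-5p, a log2 change of 0.447 ± 0.064 (SE, adjusted p = 0.00149) against Parent and 0.332 ± 0.064 (SE, adjusted p = 0.00607) against NC-1. Its NC-1 libraries did not pass against Parent (0.116, adjusted p = 0.217). ORC6, a small subunit, was at 26.3 and 25.1 FPKM in Parent, 20.8 and 21.97 in NC-1 and 25.3 and 28.98 with miR-4711-5p. It was lower in NC-1 (-0.253 ± 0.072 (SE, adjusted p = 0.0399)) and higher with miR-4711-5p than in NC-1 (0.328 ± 0.072 (SE, adjusted p = 0.0104)), and its miR-4711-5p libraries overlapped Parent (adjusted p = 0.432). ORC3 was called only against NC-1 (0.219 ± 0.064 (SE, adjusted p = 0.0311)). ORC5 was at 17.97 and 20.3 FPKM in Parent, 17.4 and 17.8 in NC-1 and 18.2 and 19.7 with miR-4711-5p, with 0.101 ± 0.071 (SE, adjusted p = 0.294) against NC-1, and ORC2 at a log2 change of 0.127 (adjusted p = 0.149), and neither passed in any of the 3 comparisons on the deposited scale. With 1 library left out, the adjusted p against NC-1 reached 0.121 for ORC1, 0.147 for ORC3 and 0.0645 for ORC6, and that of ORC6 in NC-1 against Parent reached 0.166.

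Of the licensing factors, CDC6 was lower again with miR-4711-5p. CDC6, the ATPase that brings the MCM ring to the origin, was at 42.8 and 43.8 FPKM in Parent, 34.7 and 33.3 in NC-1 and 27.9 and 28.7 with miR-4711-5p. The groups did not overlap and stood in the order Parent, NC-1, miR-4711-5p. Its log2 change was -0.340 ± 0.047 (SE, adjusted p = 0.00373) in NC-1 against Parent, -0.596 ± 0.047 (SE, adjusted p = 0.000104) with miR-4711-5p against Parent, and -0.255 ± 0.047 (SE, adjusted p = 0.00514) against NC-1. CDT1, which hands the ring over, was at 25.9 and 20.8 FPKM in Parent, 16.2 and 19.1 in NC-1 and 19.7 and 20.3 with miR-4711-5p. Its Parent libraries lay far apart, and it passed the test only in NC-1 against Parent (-0.381 ± 0.111 (SE, adjusted p = 0.0426)). That call was lost without NC-1 library 1 (-0.268), Parent library 1 (-0.228) or either miR-4711-5p library. It was also lost with no filter (adjusted p = 0.117), at equal sums (0.0778) and with only the 2 groups compared (0.0699). Nor did it hold without the variance trend (0.071), with a replicate block (0.0661) or under the 1.5-fold rule. GMNN was at 43.2 and 43.5 FPKM in Parent, 35.8 and 37.1 in NC-1 and 37.8 and 38.2 with miR-4711-5p, lower than Parent in both (-0.244, adjusted p = 0.009, and -0.187, adjusted p = 0.0134), and its change against NC-1 was 0.057 ± 0.044 (SE, adjusted p = 0.342). The GMNN call with miR-4711-5p was lost without either miR-4711-5p library (adjusted p up to 0.0823) and after rescaling to equal sums (-0.050, adjusted p = 0.389).

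All 6 genes of the MCM2-7 helicase were lower than Parent in both transfected groups, and all stayed so with any library left out and after rescaling to equal sums. MCM2 had the largest fall of the 6 in NC-1. It was at 87.2 and 85.1 FPKM in Parent, 55.1 and 57.3 in NC-1 and 52.6 and 52.3 with miR-4711-5p, with a log2 change of -0.607 ± 0.044 (SE, adjusted p = 0.000437) in NC-1 and -0.704 ± 0.044 (SE, adjusted p = 3.19e-05) with miR-4711-5p against Parent. The difference between the transfected groups did not pass (-0.097 ± 0.044 (SE, adjusted p = 0.118)). MCM3 was at 70.1 and 67.4 FPKM in Parent, 50.1 and 50.1 in NC-1 and 47.1 and 48.7 with miR-4711-5p. Its log2 change was -0.450 ± 0.045 (SE, adjusted p = 0.0014) in NC-1 and -0.513 ± 0.045 (SE, adjusted p = 0.000161) with miR-4711-5p against Parent, and -0.063 ± 0.045 (SE, adjusted p = 0.304) between the transfected groups. MCM4 was at 68.5 and 69.7 FPKM in Parent, 48.7 and 49.6 in NC-1 and 48.4 and 49.4 with miR-4711-5p. Its NC-1 and miR-4711-5p libraries overlapped (-0.007 ± 0.043 (SE, adjusted p = 0.907)) and lay below Parent (-0.483 ± 0.043 (SE, adjusted p = 0.000963) and -0.491 ± 0.043 (SE, adjusted p = 0.000156)).

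MCM5 was the only gene of the ring that passed between miR-4711-5p and NC-1. It was at 77.9 and 73.8 FPKM in Parent, 51.3 and 55.8 in NC-1 and 47.04 and 45.6 with miR-4711-5p, a log2 change of -0.203 ± 0.056 (SE, adjusted p = 0.0254) against NC-1, -0.496 ± 0.056 (SE, adjusted p = 0.00204) in NC-1 against Parent and -0.699 ± 0.056 (SE, adjusted p = 0.000109) with miR-4711-5p against Parent. The call against NC-1 was lost after rescaling to equal sums (-0.150, adjusted p = 0.067), without the variance trend (adjusted p = 0.0522) and without NC-1 library 2 or either miR-4711-5p library (adjusted p up to 0.132). MCM6, the lowest of the ring in FPKM, was at 35.3 and 37.4 FPKM in Parent, 26.6 and 25.7 in NC-1 and 23.9 and 25.6 with miR-4711-5p, and its changes were -0.460 ± 0.056 (SE, adjusted p = 0.00252), -0.537 ± 0.056 (SE, adjusted p = 0.000363) and, against NC-1, -0.077 ± 0.056 (SE, adjusted p = 0.315). MCM7, the highest of the ring, was at 189 and 185 FPKM in Parent, 137 and 136 in NC-1 and 144 and 149 with miR-4711-5p. It was lower than Parent in NC-1 (-0.454 ± 0.041 (SE, adjusted p = 0.001)) and with miR-4711-5p (-0.350 ± 0.041 (SE, adjusted p = 0.000578)), while against NC-1 its value was 0.104 ± 0.041 (SE, adjusted p = 0.0793) and passed only after rescaling to equal sums (0.158, adjusted p = 0.0134). The share of MCM7 in the summed FPKM of the ring was 35.8% and 35.7% in Parent, 37.1% and 36.3% in NC-1 and 39.7% and 40.3% with miR-4711-5p, whereas that of MCM5 was 14.7% and 14.2%, 13.9% and 14.9%, and 13.0% and 12.3%. These shares are descriptions and were not tested.

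The helicase activation group held the strongest change. GINS2, a subunit of the 4-protein GINS complex that joins CDC45 to the MCM ring, was at 27.9 and 26.96 FPKM in Parent, 19.8 and 20.7 in NC-1 and 8.28 and 9.01 with miR-4711-5p. The groups did not overlap, and both miR-4711-5p libraries lay far below both NC-1 libraries. Against NC-1 the mean FPKM was 57.3% lower (log2 change -1.141 ± 0.059 (SE, adjusted p = 1.83e-05)), and it ranked 133 of 12040 genes from the lowest change. Against Parent the log2 change was -1.560 ± 0.059 (SE, adjusted p = 5.15e-06) with miR-4711-5p and -0.419 ± 0.059 (SE, adjusted p = 0.00397) in NC-1. GINS2 overlaps GSE1 on the opposite strand. Of the other genes called against NC-1, GINS1, GINS3, LIG1, ORC4, RPA1 and CHAF1A also overlap a gene on the opposite strand.

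The other GINS genes changed less than GINS2. GINS3 was at 17.6 and 18.9 FPKM in Parent, 14.1 and 13.9 in NC-1 and 11.4 and 11.5 with miR-4711-5p, with log2 changes of -0.273 ± 0.056 (SE, adjusted p = 0.00802) against NC-1, -0.627 ± 0.056 (SE, adjusted p = 0.000184) against Parent and -0.354 ± 0.056 (SE, adjusted p = 0.00586) in NC-1 against Parent. GINS1 was at 19.9 and 20.3 FPKM in Parent, 18.2 and 18.3 in NC-1 and 16.1 and 15.4 with miR-4711-5p, with -0.202 ± 0.050 (SE, adjusted p = 0.017) against NC-1 and -0.333 ± 0.050 (SE, adjusted p = 0.00186) against Parent, while NC-1 did not pass against Parent (adjusted p = 0.0928). Both stood in the order Parent, NC-1, miR-4711-5p without overlap, and with 1 library left out the adjusted p against NC-1 reached 0.0553 for GINS3 and 0.107 for GINS1. GINS4 was at 7.95 and 7.77 FPKM in Parent, 6.34 and 5.59 in NC-1 and 5.87 and 6.26 with miR-4711-5p, lower than Parent in both groups (-0.350, adjusted p = 0.016, and -0.328, adjusted p = 0.0117) and at 0.022 ± 0.076 (SE, adjusted p = 0.844) against NC-1, and both calls were lost without Parent library 1. GINS2 made up 38.1% and 36.4% of the summed GINS FPKM in Parent, 33.9% and 35.4% in NC-1, and 19.9% and 21.3% with miR-4711-5p. It was thus the highest of the 4 in Parent and NC-1, and with miR-4711-5p it stood below GINS1 and GINS3.

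CDC45, which binds the ring together with GINS, was at 29.8 and 28.002 FPKM in Parent, 22.4 and 21.97 in NC-1 and 19.3 and 23.03 with miR-4711-5p. It was lower than Parent in both groups (-0.369 ± 0.083 (SE, adjusted p = 0.0185) and -0.439 ± 0.083 (SE, adjusted p = 0.00505)), and its miR-4711-5p libraries lay on either side of NC-1 (-0.070 ± 0.083 (SE, adjusted p = 0.536)). The call in NC-1 was lost without any 1 of the Parent or NC-1 libraries (adjusted p up to 0.104). MCM10 was at 14.2 and 13.2 FPKM in Parent, 9.56 and 10.3 in NC-1 and 11.6 and 11.3 with miR-4711-5p, lower in NC-1 (-0.434 ± 0.063 (SE, adjusted p = 0.00432)) and with miR-4711-5p (-0.239 ± 0.063 (SE, adjusted p = 0.0197)) than in Parent and higher with miR-4711-5p than in NC-1 (0.195 ± 0.063 (SE, adjusted p = 0.0447)). That rise was lost without any 1 of the NC-1 or miR-4711-5p libraries (adjusted p up to 0.191), and the fall with miR-4711-5p without Parent library 1 or either miR-4711-5p library (up to 0.104) and after rescaling to equal sums (-0.109, adjusted p = 0.188). CDC7, the catalytic part of the kinase, was at 10.95 and 11.97 FPKM in Parent, 9.09 and 9.02 in NC-1 and 8.94 and 8.93 with miR-4711-5p, lower than Parent in both groups (-0.309 ± 0.062 (SE, adjusted p = 0.0123) and -0.326 ± 0.062 (SE, adjusted p = 0.00516)) and at -0.017 ± 0.062 (SE, adjusted p = 0.853) against NC-1, its NC-1 call being lost without Parent library 2 or either NC-1 library (up to 0.0553). Its partner DBF4 was at 11.96 and 13.1 FPKM in Parent, 12.8 and 12.2 in NC-1 and 12.2 and 11.2 with miR-4711-5p, and was called in none of the comparisons. Both miR-4711-5p libraries lay below both NC-1 libraries (-0.088 ± 0.068 (SE, adjusted p = 0.344)), and the groups overlapped in the other 2 comparisons.

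**Figure D3:**
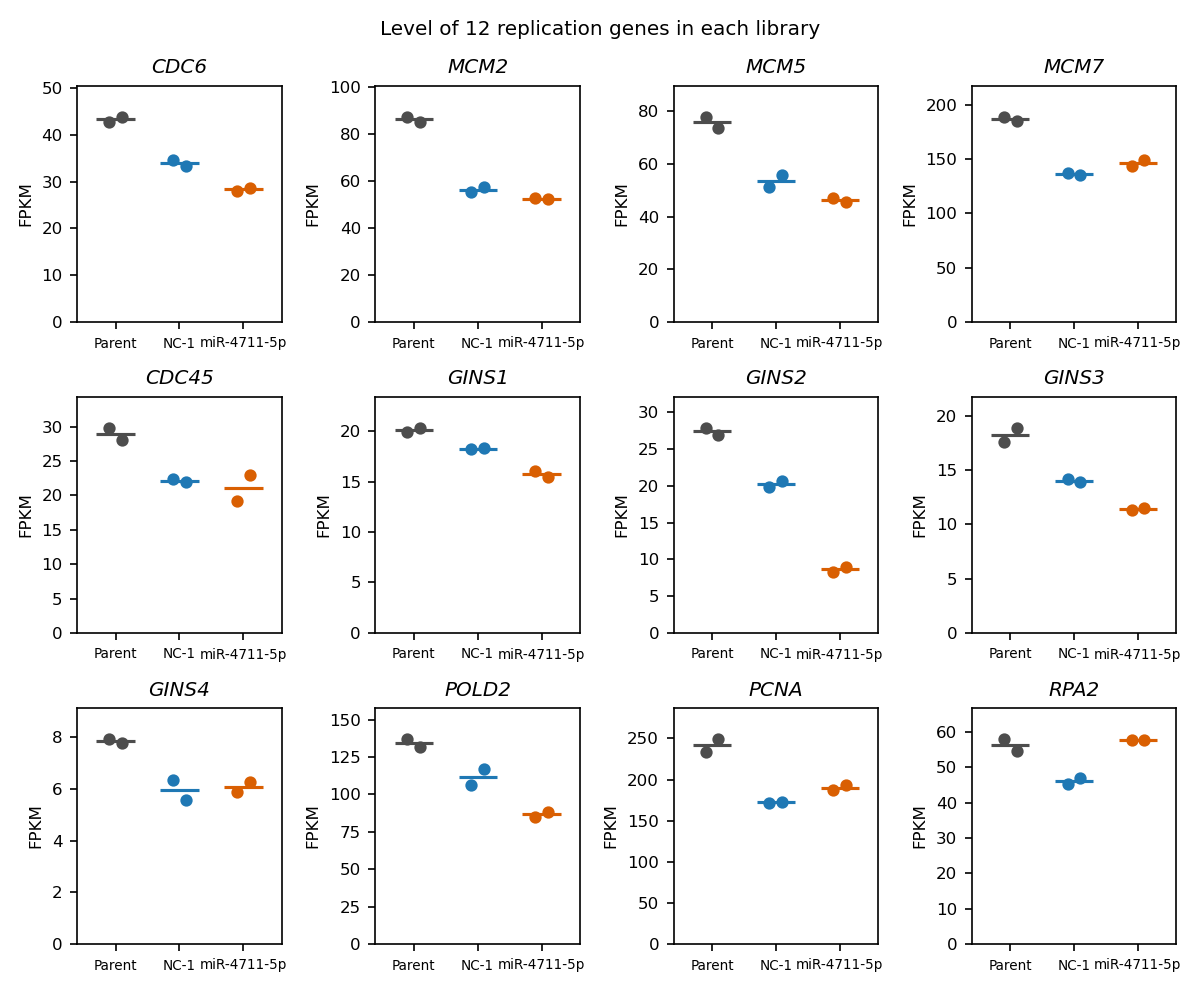
FPKM of 12 replication genes (vertical axis, starting at 0) in each library of Parent, NC-1 and miR-4711-5p, with a point per library and a line at the mean of the group. GINS2 falls from 19.8 and 20.7 in NC-1 to 8.28 and 9.01 with miR-4711-5p, CDC6 and POLD2 step down in both transfected groups, and RPA2 with miR-4711-5p lies within the range of Parent.

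In polymerase alpha-primase, which starts each new strand, all 4 genes fell with miR-4711-5p against Parent and none passed against NC-1 (at an unadjusted p under 0.05 there was also none). POLA1, the catalytic subunit, was at 9.05 and 9.14 FPKM in Parent, 5.81 and 5.92 in NC-1 and 6.27 and 6.84 with miR-4711-5p, with log2 changes of -0.556 ± 0.065 (SE, adjusted p = 0.00215) in NC-1 and -0.418 ± 0.065 (SE, adjusted p = 0.00216) with miR-4711-5p against Parent, and of 0.138 ± 0.065 (SE, adjusted p = 0.134) against NC-1. POLA2 was at 25.2 and 23.4 FPKM in Parent, 19.3 and 18.8 in NC-1 and 18.7 and 19.4 with miR-4711-5p, and its difference between miR-4711-5p and NC-1 was 0.004 ± 0.057 (SE, adjusted p = 0.966). It was lower than Parent by -0.337 and -0.334 (adjusted p = 0.00684 and 0.00315). Against Parent, the primase genes PRIM1 and PRIM2 fell with miR-4711-5p (-0.374, adjusted p = 0.00292, and -0.264, adjusted p = 0.0189, the latter up to 0.1 with 1 library left out). NC-1 was lower for PRIM1 (-0.393, adjusted p = 0.00586) and did not pass for PRIM2 (-0.189, adjusted p = 0.0826), whose exons overlap a related copy.

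POLD2, the accessory subunit of polymerase delta, which copies the lagging strand, fell in steps. It was at 137 and 132 FPKM in Parent, 107 and 117 in NC-1 and 85.1 and 88.2 with miR-4711-5p, and the groups did not overlap. The log2 change was -0.361 ± 0.055 (SE, adjusted p = 0.00229) against NC-1, -0.628 ± 0.055 (SE, adjusted p = 0.000169) against Parent and -0.267 ± 0.055 (SE, adjusted p = 0.0139) in NC-1 against Parent, the last being lost without Parent library 1 or NC-1 library 1 (adjusted p up to 0.0823). POLD1, the catalytic subunit, was lower than Parent in both groups (-0.423, adjusted p = 0.0035, and -0.325, adjusted p = 0.00383) and at 0.098 ± 0.058 (SE, adjusted p = 0.219) against NC-1. POLD3 was at 11.9 and 12.6 FPKM in Parent, 11.2 and 10.5 in NC-1 and 11.4 and 10.9 with miR-4711-5p and passed in none of the comparisons (0.039 ± 0.062 (SE, adjusted p = 0.652) against NC-1).

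Of polymerase epsilon, which copies the leading strand, POLE2 was lower with miR-4711-5p than in either other group and POLE was not. POLE, the catalytic subunit, was at 20.3 and 19.6 FPKM in Parent, 17.1 and 17.6 in NC-1 and 19.1 and 19.4 with miR-4711-5p, lower in NC-1 than in Parent (-0.194 ± 0.050 (SE, adjusted p = 0.0286)), while the miR-4711-5p value did not pass against Parent (-0.050, adjusted p = 0.449) or NC-1 (0.144 ± 0.050 (SE, adjusted p = 0.0556)), and the NC-1 call was lost without any 1 library (up to 0.114). After rescaling to equal sums POLE passed as higher than in NC-1 (0.196, adjusted p = 0.0168). POLE2 was at 13.2 and 13.1 FPKM in Parent, 11.7 and 10.8 in NC-1 and 9.82 and 9.51 with miR-4711-5p, with miR-4711-5p below NC-1 (-0.195 ± 0.060 (SE, adjusted p = 0.0376)) and below Parent (-0.406 ± 0.060 (SE, adjusted p = 0.00173)), and NC-1 below Parent (-0.211 ± 0.060 (SE, adjusted p = 0.0395)). Its calls against NC-1 and of NC-1 against Parent were lost with 1 library left out (up to 0.175 and 0.162).

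PCNA, the sliding clamp, had the highest level of the 47 genes. It was at 234 and 249.6 FPKM in Parent, 172 and 173 in NC-1 and 187 and 193 with miR-4711-5p, lower than Parent in NC-1 (-0.486 ± 0.046 (SE, adjusted p = 0.00116)) and with miR-4711-5p (-0.346 ± 0.046 (SE, adjusted p = 0.00105)), and higher with miR-4711-5p than in NC-1 (0.140 ± 0.046 (SE, adjusted p = 0.0462)), a call lost without any 1 of the NC-1 or miR-4711-5p libraries (adjusted p up to 0.212). Of the clamp loader, RFC1, the large subunit, was the one gene lower than NC-1. It was at 16.3 and 17.5 FPKM in Parent, 17.5 and 15.7 in NC-1 and 13.9 and 13.9 with miR-4711-5p, with -0.238 ± 0.068 (SE, adjusted p = 0.0291) against NC-1 and -0.262 ± 0.068 (SE, adjusted p = 0.0185) against Parent, and NC-1 overlapped Parent (adjusted p = 0.818). With 1 library left out, the adjusted p of RFC1 reached 0.143 and 0.0969. RFC3 was at 26.6 and 28.3 FPKM in Parent, 24.6 and 22.6 in NC-1 and 26.9 and 26.8 with miR-4711-5p, lower in NC-1 than in Parent (-0.212 ± 0.059 (SE, adjusted p = 0.0379)) and higher with miR-4711-5p than in NC-1 (0.182 ± 0.059 (SE, adjusted p = 0.0454)), and both calls were lost without any 1 library other than NC-1 library 1 (up to 0.153 and 0.199 over all libraries left out).

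RFC2, RFC4 and RFC5, the other small subunits of the loader, were lower than Parent in both groups and did not pass against NC-1. RFC2 was at 50.1 and 49.5 FPKM in Parent, 34.7 and 36.4 in NC-1 and 33.1 and 32.1 with miR-4711-5p, with log2 changes of -0.475 ± 0.047 (SE, adjusted p = 0.0014) in NC-1 and -0.597 ± 0.047 (SE, adjusted p = 0.000102) with miR-4711-5p against Parent and -0.122 ± 0.047 (SE, adjusted p = 0.0788) against NC-1. RFC4 was at 27.6 and 29.3 FPKM in Parent, 20.7 and 21.3 in NC-1 and 20.5 and 19.9 with miR-4711-5p, with log2 changes of -0.419 and -0.476 against Parent (adjusted p = 0.00281 and 0.000474) and was at -0.057 ± 0.053 (SE, adjusted p = 0.426) against NC-1. RFC5 showed -0.302 and -0.356 (adjusted p = 0.00759 and 0.00171) and was at -0.053 ± 0.052 (SE, adjusted p = 0.453) against NC-1.

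RPA1 and RPA2, the larger subunits of the single-strand binding protein, were lower in NC-1 than in Parent and higher with miR-4711-5p than in NC-1. RPA1 was at 35.9 and 36.7 FPKM in Parent, 30.8 and 30.6 in NC-1 and 34.9 and 36.2 with miR-4711-5p. RPA2 was at 58.1 and 54.7 FPKM in Parent, 45.4 and 47.02 in NC-1 and 57.8 and 57.7 with miR-4711-5p. The miR-4711-5p libraries of both overlapped Parent and lay above both NC-1 libraries. NC-1 was lower than Parent by -0.236 ± 0.046 (SE, adjusted p = 0.0112) for RPA1 and -0.282 ± 0.049 (SE, adjusted p = 0.00742) for RPA2, and miR-4711-5p was higher than NC-1 by 0.204 ± 0.046 (SE, adjusted p = 0.0115) and 0.316 ± 0.049 (SE, adjusted p = 0.0023). The difference of miR-4711-5p from Parent was -0.032 ± 0.046 (SE, adjusted p = 0.602) and 0.034 ± 0.049 (SE, adjusted p = 0.601). The RPA1 rise was lost without miR-4711-5p library 2 (adjusted p = 0.0828). RPA3, the smallest subunit, was at 20.2 and 22.6 FPKM in Parent, 16.7 and 14.96 in NC-1 and 14.6 and 16.6 with miR-4711-5p, lower than Parent in both groups (-0.412 ± 0.087 (SE, adjusted p = 0.0147) and -0.433 ± 0.087 (SE, adjusted p = 0.00653)) and at -0.021 ± 0.087 (SE, adjusted p = 0.872) against NC-1. With 1 library left out its adjusted p reached 0.0768 in NC-1 and 0.0509 with miR-4711-5p.

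Both genes of Okazaki fragment joining were lower than Parent, and the ligase was lower again with miR-4711-5p. LIG1, DNA ligase 1, was at 29.4 and 28.5 FPKM in Parent, 21.7 and 21.8 in NC-1 and 17.8 and 18.9 with miR-4711-5p, with -0.397 ± 0.052 (SE, adjusted p = 0.0031) in NC-1, -0.629 ± 0.052 (SE, adjusted p = 0.000125) with miR-4711-5p and -0.232 ± 0.052 (SE, adjusted p = 0.0113) between the transfected groups. Without miR-4711-5p library 1 the last was at an adjusted p of 0.0847. FEN1, the flap nuclease, was at 78.1 and 79.3 FPKM in Parent, 64.4 and 63.5 in NC-1 and 62.5 and 68.4 with miR-4711-5p, lower than Parent in both (-0.296, adjusted p = 0.00832, and -0.263, adjusted p = 0.00651) and at 0.033 ± 0.053 (SE, adjusted p = 0.658) against NC-1, with overlapping libraries. After rescaling to equal sums the FEN1 fall with miR-4711-5p did not pass (-0.126, adjusted p = 0.0765).

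Of the chromatin factors, UHRF1, which recognises hemimethylated DNA and recruits DNMT1, was at 40.6 and 36.1 FPKM in Parent, 25.2 and 25.5 in NC-1 and 32.9 and 30.9 with miR-4711-5p. Its log2 change was -0.576 ± 0.066 (SE, adjusted p = 0.00206) in NC-1, -0.257 ± 0.066 (SE, adjusted p = 0.0177) with miR-4711-5p and 0.319 ± 0.066 (SE, adjusted p = 0.00818) between them, so that miR-4711-5p lay between NC-1 and Parent. Without miR-4711-5p library 1 the rise against NC-1 was at an adjusted p of 0.0646, and the fall against Parent was lost without library 2 or Parent library 1 (up to 0.111) and after rescaling to equal sums (-0.121, adjusted p = 0.162). CHAF1A, the large subunit of the histone chaperone, was at 26.5 and 26.1 FPKM in Parent, 19.7 and 19.6 in NC-1 and 22.4 and 22.2 with miR-4711-5p, lower than Parent in both (-0.400 ± 0.046 (SE, adjusted p = 0.00206) and -0.226 ± 0.046 (SE, adjusted p = 0.0069)) and higher with miR-4711-5p than in NC-1 (0.173 ± 0.046 (SE, adjusted p = 0.0217)), the rise being lost without any 1 of the NC-1 or miR-4711-5p libraries (up to 0.109) and the fall with miR-4711-5p after rescaling to equal sums (-0.092, adjusted p = 0.142). Its partner CHAF1B was at 14.9 and 13.8 FPKM in Parent, 10.5 and 11.04 in NC-1 and 9.07 and 10.2 with miR-4711-5p, with -0.385 ± 0.073 (SE, adjusted p = 0.0106), -0.531 ± 0.073 (SE, adjusted p = 0.00128) and -0.146 ± 0.073 (SE, adjusted p = 0.155) in the same order, and its NC-1 call was lost without Parent library 1 or NC-1 library 1 (up to 0.0688). DNMT1, the maintenance methyltransferase, was at 51.9 and 47.9 FPKM in Parent, 39.5 and 38.4 in NC-1 and 36.1 and 35.8 with miR-4711-5p, lower than Parent in both (-0.348 ± 0.053 (SE, adjusted p = 0.00503) and -0.461 ± 0.053 (SE, adjusted p = 0.000551)) and at -0.113 ± 0.053 (SE, adjusted p = 0.131) against NC-1.

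The genes with and without a seed site were set beside their change against NC-1. Of the 8 genes with a site in an annotated 3′ UTR, 4 were lower with miR-4711-5p than in NC-1 (CDC6, GINS2, GINS3 and POLD2) and the other 4 (CHAF1B, POLD3, POLE and RFC4) did not pass. Of the 39 without one, 5 were lower and 11 higher. Over all tested genes with an annotated 3′ UTR, 35.7% of the 2180 with a site were lower and 11.7% higher, and of the 8413 without one 18.7% were lower and 20.9% higher. The median log2 change was -0.201 for the 8 genes and 0.022 for the 39, beside -0.102 and 0.023 over all genes. Against 8mer genes in all, of which 43.9% of 424 were lower with a median of -0.183, GINS2 at -1.141 was further down. In NC-1 against Parent, 7 of the 8 and 31 of the 39 were lower, where 10.1% of all genes with a site and 17.2% of those without were. MCM5 and DNMT1, which had no site in a 3′ UTR, held an 8mer in the coding sequence of the transcript searched, as did none of the other 45. MCM5 was lower than in NC-1 and DNMT1 did not pass. Coding sites of the 7mer classes lay in FEN1, MCM2, MCM6, POLA1, POLD1, POLE and RFC1. Of these genes only RFC1 was lower than in NC-1. Coding sites were not counted over all tested genes, so they have no reference set.

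**Figure D4:**
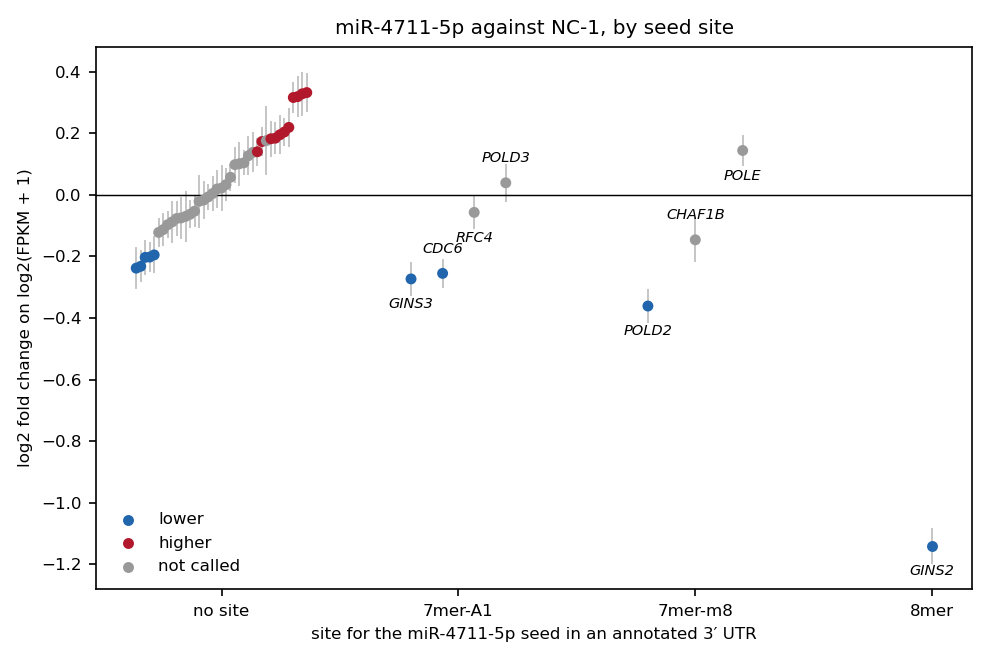
Log2 change of the 47 genes between miR-4711-5p and NC-1 (vertical axis, on log2(FPKM + 1), with SE bars) by the strongest class of seed site in an annotated 3′ UTR, coloured by whether limma called the gene. GINS2, the one gene with an 8mer, lies at -1.141, and the 11 genes called higher are all among the 39 without a site. Over all tested genes with an annotated 3′ UTR, 11.7% of those with a site were higher. None among the 8 genes with a site is near that share.

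The promoters of many of the genes share an E2F-type motif. The motifs searched, on both strands, were TTTCCCGC, TTTGGCGC, TTTCGCGC and TTTGCCGC, in the window from 250 bases before to 50 after the start site of the first listed RefSeq promoter on GRCh38.p14. TTTGGCGC and TTTCGCGC overlap when they face each other, as does TTTCGCGC with itself. Of the 41 genes with a promoter sequence, 19 held at least 1 (46.3%), against 3.33% of 27305 promoters and 5.56% of those of 8975 tested genes. MCM4, MCM5, GINS4, POLD3, RPA2 and RPA3 were not matched. MCM2, MCM3, MCM6 and MCM7, the matched genes of the ring, each held at least 1. Stretches of 60 bases are shown for 5 genes that were lower than Parent in both groups and then fell, did not pass or rose between NC-1 and miR-4711-5p, with the motif in capitals, read along the gene's strand:
GINS2: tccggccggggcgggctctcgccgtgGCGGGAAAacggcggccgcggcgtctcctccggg
CDC6: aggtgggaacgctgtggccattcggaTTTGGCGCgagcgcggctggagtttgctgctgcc
MCM2: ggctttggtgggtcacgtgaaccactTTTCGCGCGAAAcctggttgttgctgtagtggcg
PCNA: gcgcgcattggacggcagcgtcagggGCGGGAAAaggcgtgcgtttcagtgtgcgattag
UHRF1: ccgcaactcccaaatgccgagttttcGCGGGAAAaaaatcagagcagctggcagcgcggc
They lie at chr16:85688952-85689011 on the minus strand, chr17:40287860-40287919 on the plus strand, chr3:127598387-127598446 on the plus strand, chr20:5126648-5126707 on the minus strand and chr19:4909461-4909520 on the plus strand. In MCM2 the motif is read on both strands of the same 12 bases. Genes with a motif had a median log2 change of -0.381 in NC-1 and -0.406 with miR-4711-5p against Parent, with 17 and 15 of 19 lower, and those without had -0.299 and -0.264, with 16 of 22 lower in each. Over all tested genes 15.1% and 24.7% were lower in these comparisons. Calls among all tested genes with a motif were not counted, so this split has no reference set. Against NC-1 the 19 with a motif had 6 lower and 4 higher and the 22 without had 2 lower and 6 higher, where 21.2% of all tested genes were lower and 18.4% higher, so that 4 of 19 is near the share over all genes. These are descriptions of letters in a window, and binding was not measured.

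Of the other lists of the pathway, those of replication, nucleotide supply and mitosis were mostly lower than Parent with miR-4711-5p and that of E2F factors went both ways. Over all tested genes, 15.1% were lower and 12.1% higher in NC-1 than in Parent, 24.7% and 18.7% with miR-4711-5p, and 21.2% and 18.4% between miR-4711-5p and NC-1. Of 32 replication accessory factors (such as TICRR, claspin and the FACT histone chaperone), 13 were lower and 1 higher in NC-1 than in Parent, 23 lower and 1 higher with miR-4711-5p, and 11 fell between NC-1 and miR-4711-5p, where the other 21 did not pass. Their median log2 change was -0.187, -0.299 and -0.075 in that order. All 6 genes of nucleotide supply, among them thymidylate synthase and ribonucleotide reductase, were lower than Parent in both groups (medians -0.396 and -0.568), and 3 of the 6 fell between NC-1 and miR-4711-5p. Of 18 genes of mitosis, 15 were lower in NC-1 and 16 with miR-4711-5p than in Parent (medians -0.257 and -0.348), and 5 were lower and 1 higher between the transfected groups, the former near the share over all genes. The 13 E2F, DP and pocket protein genes had 4 lower and 2 higher in NC-1 than in Parent, 5 lower and 3 higher with miR-4711-5p, and 4 lower and 3 higher between them. The counts higher, and the count lower between the transfected groups, are near the shares over all genes. The 3 called higher than Parent with miR-4711-5p were E2F3 (0.348 ± 0.057 (SE, adjusted p = 0.00278)), E2F5 (0.580 ± 0.111 (SE, adjusted p = 0.00524)) and E2F6 (0.460 ± 0.116 (SE, adjusted p = 0.0167)), named here after their values were seen. E2F5 was low, at 1.09 and 0.924 FPKM in Parent, 1.62 and 1.52 in NC-1 and 1.92 and 2.07 with miR-4711-5p. E2F6 was at 2.40 and 2.73, 3.45 and 2.84, and 4.27 and 3.55 FPKM in the same order. For E2F5 and E2F6 both NC-1 libraries also lay above both Parent libraries, and for E2F3 they lay below. The alternatives were not read for these 3 genes. TFDP1, the DP partner of E2F factors, was at 44.7 and 48.6 FPKM in Parent, 38.7 and 44.02 in NC-1 and 20.6 and 19.9 with miR-4711-5p, with a log2 change of -0.994 ± 0.073 (SE, adjusted p = 8.14e-05) against NC-1 and -1.166 ± 0.073 (SE, adjusted p = 3.26e-05) against Parent, and NC-1 did not pass against Parent (adjusted p = 0.121). E2F1 was at 17.3 and 17.4 FPKM in Parent, 14.3 and 15.4 in NC-1 and 14.5 and 13.998 with miR-4711-5p, lower than Parent in both (-0.213 ± 0.057 (SE, adjusted p = 0.0323) and -0.264 ± 0.057 (SE, adjusted p = 0.00869)) and at -0.052 ± 0.057 (SE, adjusted p = 0.502) against NC-1.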

How the data were processed

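RNA from BxPC-3 cells was sequenced in 6 libraries made with a stranded mRNA kit. The submitters' processing notes name TopHat2 2.1.1, Bowtie2 2.3.5.1, SAMtools 1.2, Cuffdiff and Cufflinks 2.2.1 with hg19, while the study's methods give other versions and Cuffnorm. The deposited FPKM values were made by the authors and divide fragments by exon length and library size. The gene annotation and the strand and normalization options are not given in the sources used here. FPKM hold no counts, so no count model was run.

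Here, the 12040 genes that averaged 1 FPKM or more were fitted on log2(FPKM + 1) with limma 3.58.1 in R 4.3.3, with moderated variances and a trend, with the 3 groups in one fit of 3 residual and 4.15 prior degrees of freedom. The 3 comparisons were two-sided, with Benjamini-Hochberg adjustment at 0.05, and fold changes on this scale understate those of low genes. With 2 libraries against 2, the smallest exact permutation p is 0.333, so each call rests on the spread shared across genes. Percentages of mean FPKM used no pseudocount. The 47 genes and the other lists were chosen with earlier results of these data known. All 47 are accounted for, and the genes named by rule were those the study measured by qPCR, the largest and smallest change of each group against NC-1, genes called in opposite directions in 2 comparisons, TFDP1 and E2F1. Remaining genes of each group are described with them, some with a standard error. Alternatives were a pseudocount of 0.1, no filter, median-of-ratios and equal-sum rescaling, only the 2 groups compared, no trend, an added 1.5-fold change, a replicate block and each library left out. Seed sites were searched in GENCODE v44 transcripts on GRCh37, and any annotated 3′ UTR was used in the text. Promoters came from RefSeq. Python 3.11.15, numpy 2.4.6 and pandas 2.3.3 were used.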

Additional observations from a re-analysis of the deposited data

How the results depend on the processing

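No gene of the 47 changed direction from a called value under the alternatives run. An added 1.5-fold change left 1 lower and 0 higher of the 47 between miR-4711-5p and NC-1, 8 lower and 0 higher between miR-4711-5p and Parent, and 1 lower between NC-1 and Parent, because it asks for a larger change. Equal summed FPKM gave 5 lower against NC-1 and 4 higher against Parent with miR-4711-5p, and medians of 0.055, -0.206 and -0.273 (NC-1 against Parent last). No filter gave 7 higher against NC-1, median-of-ratios rescaling 2 higher against Parent, and a pseudocount of 0.1 a median of -0.374 in NC-1 against Parent. The cause of these moves was not tested. With 1 library left out, miR-4711-5p against NC-1 had 3 to 8 lower, 3 to 10 higher and a median of -0.022 to 0.043, miR-4711-5p against Parent had 29 to 35 lower, 1 to 2 higher and a median of -0.366 to -0.323, and NC-1 against Parent had 29 to 34 lower and a median of -0.363 to -0.332. A group left with 1 library was assumed to vary like the others. Of the calls, 15 of 20 against NC-1, 7 of 36 for miR-4711-5p against Parent and 11 of 38 for NC-1 against Parent were lost without some library. Same-numbered libraries did not deviate together (r = 0.061, 0.003 and -0.009 over 12040 genes), so the numbers were not taken as pairs. A replicate block gave 9 lower and 9 higher, 35 lower and 1 higher, and 36 lower and 0 higher in the order above. Taking the longest 3′ UTR in place of any gave 7 genes with a seed site in place of 8, and any listed promoter gave 21 genes with a motif in place of 19, both chosen after seeing the data. Depth in reads is unknown, so small differences in genes of a few FPKM cannot be given counting intervals.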
